A study of Ovis aries and Mus musculus with 10 samples.

Results

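The clusters of miR-23, miR-27 and miR-24 were followed here in the mammary gland of sheep and mice through the reproductive cycle, on arrays of mouse miRNA probes. The members were the 5 mature miRNAs that the scanner files name mmu-miR-23a, mmu-miR-23b, mmu-miR-27a, mmu-miR-27b and mmu-miR-24, of 567 mouse miRNAs on the array. They were chosen by name, with earlier results of these data known. In mammals these miRNAs come from a pair of related gene clusters, each transcribed as a long precursor that is cut into separate hairpins. The a cluster gives miR-23a, miR-27a and miR-24, and the b cluster gives miR-23b, miR-27b and miR-24. The a and b forms of miR-23 share a seed, the bases near the 5′ end that pair with target mRNAs, and so do the a and b forms of miR-27, whereas miR-24 has a seed of its own and the same mature form from either cluster. The clusters are best known from blood vessels, where they take part in the growth of endothelium, and from fat, where miR-27 represses adipocyte formation through PPARG. miR-24 is known to lower the expression of cell cycle genes.

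Total RNA of mammary tissue was hybridised to 10 Agilent arrays, and every sampled day is represented by 1 array. The 5 sheep arrays came from ewes at day 15 of the cycle, at days 14, 64 and 125 of gestation and at day 60 of lactation. The 5 mouse arrays came from CD1 mice, an outbred stock, as virgins, at days 10 and 17 of gestation and at days 2 and 10 of lactation. No group received a treatment, and the labels used here do not say how many animals gave the RNA of an array, so every p-value below measures only the spread between these arrays. For the models the stages were gathered in 3 classes, lactation, gestation and not pregnant, the last of which joined sheep in cycle and virgin mice.

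Signals are given as log2 relative signal, the log2 of a miRNA's background-subtracted signal over the array's 75th percentile, taken across 94 miRNAs that every array detected. That percentile ran between 788 and 1868 signal units on the sheep arrays and between 246 and 891 on the mouse arrays, and 156 to 208 miRNAs were detected in sheep against 125 to 198 in mice. Mouse virgin and mouse gestation day 10 shared slide 2, and slide 1 held the other 8 arrays. All 6 epithelial miRNAs of the miR-200 family and miR-205 were above the floor of -5.11 set for dim values on all 10 arrays, and their summed log2 level lay between 1.98 and 3.55 in sheep and between 0.91 and 3.83 in mice. The summed level of 4 striated muscle miRNAs lay between -3.11 and -2.87 in sheep. In mice it was 1.02 on the virgin array, -0.34 at gestation day 17 and -3.11 on the other mouse arrays, where all 4 were at the floor.

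Every member was detected on all 10 arrays. Each was measured by 2 probes with 10 spots each, so 20 spots on an array. All spots of miR-23a, miR-23b, miR-27a and miR-24 were well above background, whereas for miR-27b this held for 180 of 200 spots. The missing ones lay on the arrays of mouse virgin, with 11 of 20 spots well above background, mouse gestation day 10, with 19, and mouse lactation day 10, with 10. No spot was saturated. In the mouse genome, build mm9 per the probe coordinates in the files, the probe targets of the a cluster lay on chromosome 8, at 86732465 to 86732482 for miR-23a and at 86732630 to 86732646 for miR-27a. Those of the b cluster lay on chromosome 13, at 63401841 to 63401857 for miR-23b and at 63402072 to 63402088 for miR-27b. The probes for miR-24 were given the position of the b cluster copy, 63402563 to 63402580 on chromosome 13, although a signal for miR-24 can come from either cluster. The sheep annotation of RefSeq (assembly ARS-UI_Ramb_v3.0) placed MIR23A beside MIR27A, on sheep chromosome 5, and MIR23B apart from them, on sheep chromosome 2. There MIR27A lay beside ZSWIM4, and MIR23B followed AOPEP in order of start. The sheep positions of the genes for miR-27b and miR-24 are not given here.

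miR-23b and miR-27b were called higher in sheep than in mouse mammary gland, with every sheep array above every mouse array, while miR-23a, miR-27a and miR-24 overlapped between the species and were not called. In the additive limma model of species and stage class, with Benjamini-Hochberg adjustment over 213 miRNAs, 2 of 5 members passed an adjusted p of 0.05, both higher in sheep. Of all miRNAs tested, 19 of 213 were called higher in sheep, or 8.92%, and 28 were called lower, or 13.1%, which makes 22.1% called in either direction. The median difference of the 5 members was 0.63 on the log2 scale, against 0 over all miRNAs tested. All 5 differences kept their sign under every scaling tried.

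miR-23b, the b cluster's form of the miR-23 seed, was at a log2 relative signal of 0.13 in sheep at cycle day 15, 0.12 at gestation day 14, 0.22 at gestation day 64, 0.01 at gestation day 125 and 0.15 at lactation day 60. In mice it was at -1.53 in virgins, -1.23 at gestation day 10, -1.13 at gestation day 17, -0.79 at lactation day 2 and -1.08 at lactation day 10. The sheep arrays stayed close together at all stages, and the lowest of them was 0.80 log2 units above the highest mouse array. The fitted difference was 1.31 ± 0.10 (SE), a 2.49-fold higher signal in sheep, with an adjusted p of 0.000146 in limma. The whole range of its 5 sheep arrays was 0.21 log2 units, against 0.68 to 1.05 for the other members, a narrowness that depends on the probe read.

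miR-27b, the neighbour of miR-23b in the cluster and known from mouse and human work as a repressor of PPARG, was at -1.26 in sheep at cycle day 15, -1.09 at gestation day 14, -0.92 at gestation day 64, -1.38 at gestation day 125 and -1.59 at lactation day 60. The mouse arrays gave -2.89 in virgins, -2.71 at gestation day 10, -1.89 at gestation day 17, -1.86 at lactation day 2 and -2.36 at lactation day 10. The groups did not overlap, but the lowest sheep array was only 0.26 log2 units above the highest mouse array. The limma difference was 1.08 ± 0.25 (SE), a 2.12-fold higher signal in sheep, with an adjusted p of 0.0237. With slide as a term in the model the difference was 0.65 and the adjusted p 0.0636, so the call was lost. On slide 1 alone, without the arrays of mouse virgin and mouse gestation day 10, it was 0.65 with an adjusted p of 0.118, whereas miR-23b kept its call there with a difference of 1.17 and an adjusted p of 0.00306. The call of miR-27b was also lost when the array of sheep cycle, sheep gestation day 14, sheep gestation day 64, mouse virgin, mouse gestation day 10 or mouse lactation day 10 was left out, with adjusted p between 0.0509 and 0.0772. With normexp background correction miR-27b differed by 0.63 with an adjusted p of 0.136. miR-23b kept its call whichever array was left out, with adjusted p of at most 0.00144, but not in the authors' value table, where it differed by 1.26 with an adjusted p of 0.113.

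Complete separation with all sheep arrays above all mouse arrays was found for 17 of 213 miRNAs tested, or 7.98%, and for miR-23b and miR-27b among the members. The opposite separation, with all mouse arrays above all sheep arrays, was found for 20 miRNAs, or 9.39%, and for no member.

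**Figure D1:**
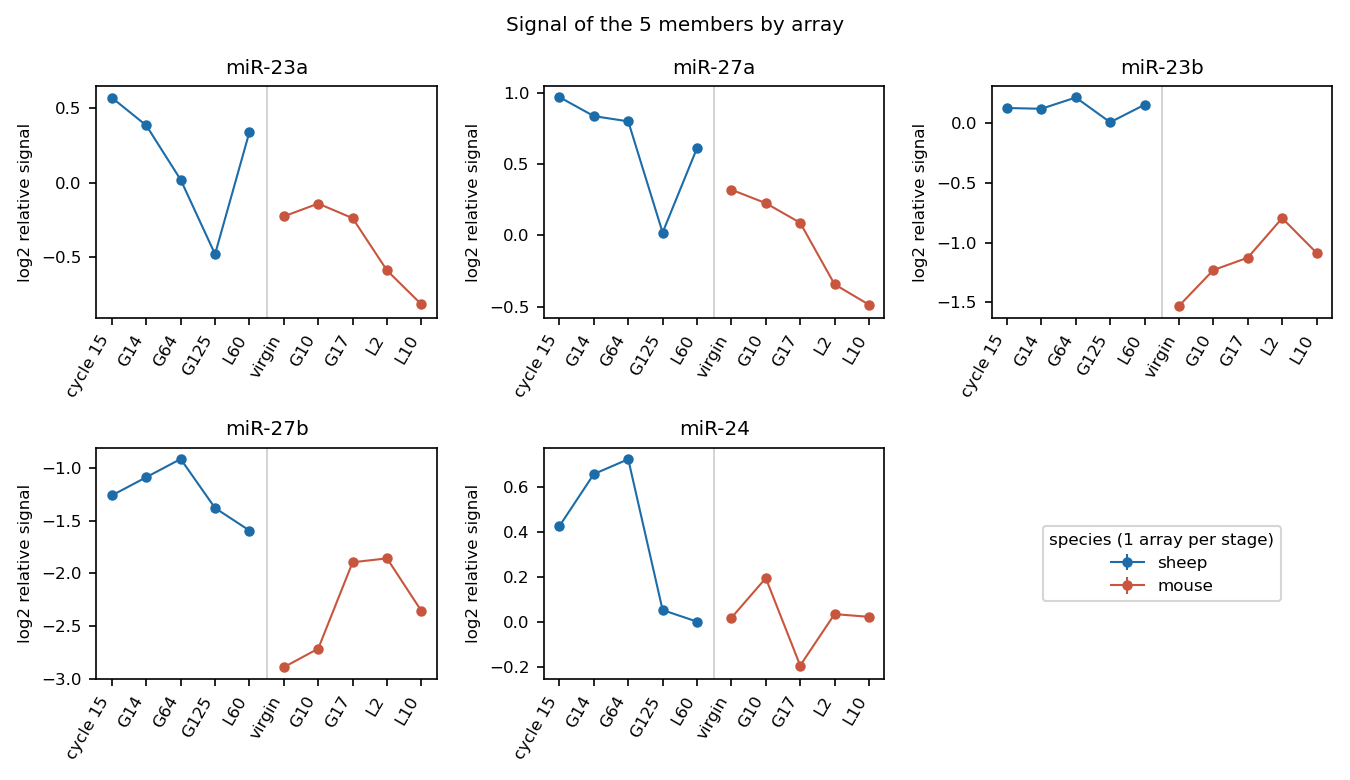
Log2 relative signal (vertical axis, its range differing by panel) of the 5 members on each array (horizontal axis: 5 sheep stages, then 5 mouse stages), with 1 point per array and the error between spots as bars that are mostly smaller than the points. miR-23b and miR-27b lie higher on all sheep arrays than on all mouse arrays, and the other 3 members overlap between the species.

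miR-23a was at 0.57 in sheep at cycle day 15, 0.38 at gestation day 14, 0.02 at gestation day 64, -0.48 at gestation day 125 and 0.34 at lactation day 60. Its mouse values were -0.23 in virgins, -0.14 at gestation day 10, -0.24 at gestation day 17, -0.59 at lactation day 2 and -0.81 at lactation day 10. In sheep the array of late gestation stood lowest, below 3 of the mouse arrays, and in mice both lactation arrays were below the other 3. The difference between the species was 0.54 ± 0.22 (SE) with an adjusted p of 0.140 in limma.

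miR-27a, the a cluster's form of the miR-27 seed, was at 0.97 in sheep at cycle day 15, 0.84 at gestation day 14, 0.80 at gestation day 64, 0.02 at gestation day 125 and 0.61 at lactation day 60. In mouse mammary gland it was at 0.32 in virgins, 0.23 at gestation day 10, 0.09 at gestation day 17, -0.34 at lactation day 2 and -0.48 at lactation day 10. As for miR-23a, sheep gestation day 125 was the lowest sheep array and cycle day 15 the highest, and both mouse lactation arrays were below the other mouse arrays. The difference between the species was 0.63 ± 0.20 (SE) with an adjusted p of 0.0666 in limma, and without the sheep array of gestation day 125 the difference was 0.77 with an adjusted p of 0.00208. Without that array 4 of 5 members were called, all but miR-24, against 24.4% of all miRNAs tested. On slide 1 alone the difference of miR-27a was 0.73 with an adjusted p of 0.226, and with slide as a term 0.74 with an adjusted p of 0.134, and so no smaller than that of miR-27b there.

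miR-24, which both clusters make, was at 0.43 in sheep at cycle day 15, 0.66 at gestation day 14, 0.72 at gestation day 64, 0.05 at gestation day 125 and 0.00 at lactation day 60. The mouse arrays were at 0.02 in virgins, 0.20 at gestation day 10, -0.19 at gestation day 17, 0.04 at lactation day 2 and 0.02 at lactation day 10. The first 3 sheep arrays stood above all mouse arrays, and the last 2 lay among them. The difference between the species was 0.32 ± 0.17 (SE) with an adjusted p of 0.254 in limma.

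**Figure D2:**
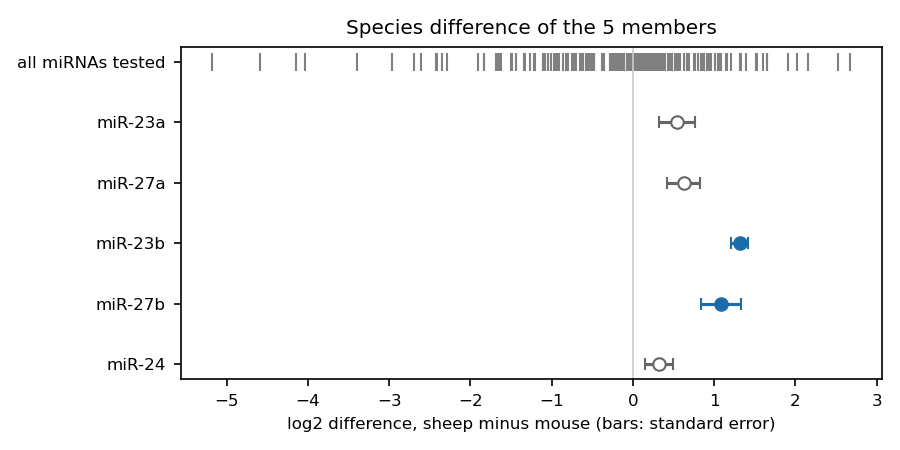
Difference between sheep and mouse (horizontal axis: log2 difference, sheep minus mouse, from limma) for the 5 members, with standard errors as bars, filled where the adjusted p was under 0.05, and for all 213 miRNAs tested as ticks in the top line. The b cluster members miR-23b (1.31) and miR-27b (1.08) lie to the right of miR-23a (0.54), miR-27a (0.63) and miR-24 (0.32).

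The probes were made for mouse miRNAs, and a difference in how sheep RNA binds them cannot be told apart here from a difference in amount. In whole tissue, fewer cells of a type and less RNA per cell cannot be told apart either. Of 4 miRNAs listed for adipocytes, 3 were called lower in sheep, and the summed log2 level of the 4 lay between -0.51 and 0.60 in sheep against 0.81 to 1.77 in mice. Within each species this sum was highest in lactation, at 0.60 at sheep lactation day 60 and at 1.55 and 1.77 at mouse lactation days 2 and 10. A sum follows its brightest members. The mean log2 value of the 4 in sheep was instead highest at gestation day 125, at -2.51, against -2.68 at lactation day 60, where 1 was at the floor. Both miRNAs listed for endothelium were tested and 0 were called, with a summed level between 0.29 and 1.37 in sheep and between 0.51 and 1.18 in mice. Of these, miR-126-3p was above the floor on all 10 arrays and miR-126-5p was at the floor on all 10. Their part in the differences of the members was not tested.

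A ratio of an a form to its b form is read within an array, so dividing arrays by a constant leaves it as it is. Levels of different probes cannot be set against each other, so only changes of the ratio are described. How far the probes for an a form also bound its b form, or the reverse, was not tested. In mouse mammary gland both ratios were lower on the lactation arrays than on the virgin array. The log2 ratio of miR-23a over miR-23b was 1.30 in virgins, 1.09 at gestation day 10, 0.89 at gestation day 17, 0.21 at lactation day 2 and 0.27 at lactation day 10. The log2 ratio of miR-27a over miR-27b was 3.21, 2.94, 1.98, 1.52 and 1.87 on the same mouse arrays in that order. Lactation day 10 thus stood 1.03 log2 units below virgin for the miR-23 pair and 1.34 below it for the miR-27 pair. For miR-27b only 11 of 20 spots were well above background on the virgin array, and 10 of 20 at lactation day 10. Background correction, unlike scaling, can change a ratio. With normexp the miR-27 ratio differed between the species by 0.015, against -0.41 in the main setting. The 2 highest ratios of each pair came from the arrays of slide 2, so the slide and these stages cannot be told apart. Among the mouse arrays of slide 1, both ratios were lower on the lactation arrays than at gestation day 17, with 1 array per day. The virgin array also carried the highest summed level of striated muscle miRNAs, at 1.02, followed by gestation day 17 at -0.34, against -3.11 on both lactation arrays. The part of this in the ratios was not tested.

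In sheep the ratio of miR-23a over miR-23b was 0.44 at cycle day 15, 0.26 at gestation day 14, -0.20 at gestation day 64, -0.49 at gestation day 125 and 0.18 at lactation day 60. The ratio of miR-27a over miR-27b was 2.23, 1.93, 1.72, 1.40 and 2.21 on the same sheep arrays in that order. Both ratios were lower on each later gestation array and stood higher again in lactation, where the miR-27 ratio differed from that in cycle by -0.02. The lowest point was thus gestation day 125 in sheep and lactation day 2 in mice.

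In a two-sided exact permutation test of the species labels over the 10 arrays, the miR-23 ratio averaged 0.04 ± 0.37 in sheep and 0.75 ± 0.49 in mice (SD, n = 5 each), a difference of -0.71 with p = 0.0476. Adjusted over the 4 ratio tests the p was 0.19, and on slide 1 alone the difference was -0.42 with an exact permutation p of 0.196. With 1 array left out the difference lay between -0.85 and -0.57 with exact permutation p between 0.0317 and 0.0952, and the p was over 0.05 on leaving out any array but those of sheep cycle day 15 and mouse lactation days 2 and 10. The miR-27 ratio averaged 1.90 ± 0.35 in sheep and 2.30 ± 0.73 in mice (SD, n = 5 each), a difference of -0.41 with an exact permutation p of 0.31, adjusted 0.413, and it was 0.11 on slide 1 alone. Between lactation and gestation the ratios differed by -0.27 for miR-23 and -0.20 for miR-27, with stage labels permuted within species. The exact permutation p was 0.292 and 0.708, adjusted 0.413 and 0.708, where 24 assignments allow no p under 0.0417. The difference in the miR-27 ratio was 0.12 on slide 1 alone and likewise without the array of mouse gestation day 10.

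**Figure D3:**
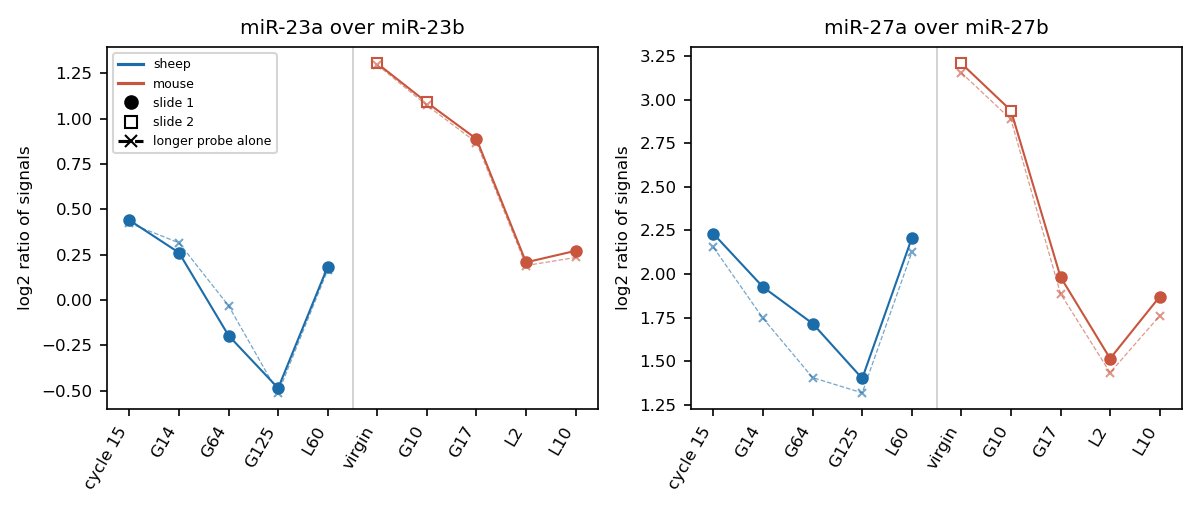
Log2 ratio of the a form over the b form (vertical axis) for miR-23 and miR-27 on each array in stage order (horizontal axis), with filled circles for slide 1, open squares for slide 2 and crosses for the longer probe of each miRNA alone. In mice both ratios are highest on the 2 arrays of slide 2 and lowest at lactation day 2, and in sheep both are lowest at gestation day 125.

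No stage comparison was called for any member. Between lactation and gestation 0 of 5 members passed in limma, 0 also at an unadjusted p of 0.05, against 6 of 213 miRNAs tested, or 2.82%. Between lactation and not pregnant it was 0 of 5 members against 11 miRNAs, or 5.16%, and between gestation and not pregnant 0 of 5 against 2 miRNAs, or 0.939%, again with 0 members at an unadjusted p of 0.05 in either. Without the sheep array of gestation day 125, miR-27a was called lower in lactation than in animals that were not pregnant, with a limma adjusted p of 0.0432, against 6.57% of all miRNAs. That array belongs to neither class compared. The difference was -0.59 without it and -0.61 with it, while the standard error was 0.11 against 0.28. The test of whether the change between gestation and lactation differed between the species called 0 of 5 members against 1 miRNA, or 0.469%, and 0 members at an unadjusted p of 0.05.

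The stage values of the a cluster differed in direction between the species. Lactation minus gestation was 0.36 for miR-23a and 0.06 for miR-27a in sheep, and -0.51 for miR-23a and -0.57 for miR-27a in mice. On these mouse arrays neither miRNA overlapped between the 2 lactation and the 2 gestation arrays, and in sheep the lactation array lay within the range of the 3 gestation arrays for both. Mouse lactation arrays all below mouse gestation arrays were found for 43 of 213 miRNAs tested, or 20.2%. The difference of these changes, sheep minus mouse, was 0.88 ± 0.46 (SE) for miR-23a, with an adjusted p of 0.752 in limma, and 0.63 ± 0.48 (SE) for miR-27a, with an adjusted p of 0.957. Lactation stayed below gestation in mice with quantile normalization, with the 75th percentile over all miRNAs, without scaling and in the authors' value table, at -1.85 to -0.32 for miR-23a and -1.91 to -0.38 for miR-27a. The sheep values changed sign, to -0.41 for miR-23a without scaling and to -0.28 and -0.71 for miR-27a with quantile normalization and without scaling.

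The b cluster gave 0.04 for miR-23b and -0.46 for miR-27b in sheep for lactation minus gestation, and 0.24 and 0.20 in mice. For miR-24 the values were -0.48 in sheep and 0.03 in mice. The sheep lactation array was below all 3 sheep gestation arrays for miR-27b and for miR-24, as it was for 41 of 213 miRNAs tested, or 19.2%. These signs also depended on the scaling, since miR-27b and miR-24 in sheep were at 0.26 and 0.25 with the 75th percentile over all miRNAs, and miR-23b and miR-27b in mice were at -1.10 and -1.14 without scaling, where the fitted median of all miRNAs shifted by -0.66. Fitted over both species, lactation minus gestation lay between -0.30 for miR-27a and 0.18 for miR-23b, with standard errors between 0.12 and 0.29. Over the same arrays the summed level of epithelial miRNAs was 2.50 in sheep at cycle day 15, 2.34 at gestation day 14, 1.98 at gestation day 64, 3.55 at gestation day 125 and 3.35 at lactation day 60. The mouse sums were 0.91 in virgins, 1.61, 2.78 and 3.43 at gestation days 10 and 17 and lactation day 2, and 3.83 at lactation day 10. With this scaling the a cluster stood lowest in sheep on the array where the epithelial sum was highest, and in mice both a cluster members were low where that sum was high. At sheep lactation day 60, however, the epithelial sum was nearly as high while the mean of the a cluster pair differed from its sheep mean by 0.07, against -0.64 at gestation day 125. The summed level of 4 fibroblast and smooth muscle miRNAs was 0.31, 0.58, 0.86, -0.88 and -0.97 on the sheep arrays, ordered by stage, and -0.38, -0.24, -0.18, -1.05 and -1.11 on the mouse arrays. It was thus low on the same mouse lactation arrays as the a cluster, and in sheep low on the arrays of gestation day 125 and lactation day 60, as miR-24 was. The part of cell composition in this was not tested.

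The steps between neighbouring stages compare an array with an array and have no test, only an error between spots. Between gestation days 64 and 125 in sheep all 5 members were lower at the later day, with differences of -0.50 for miR-23a, -0.78 for miR-27a, -0.21 for miR-23b, -0.46 for miR-27b and -0.67 for miR-24, each with an error between spots of about 0.01. In the authors' value table all 5 were instead higher at gestation day 125, by 0.44 to 1.01, so this step depends on how the arrays are scaled. It also depends on the probe, since with the longer probe alone the differences were -0.39 for miR-23a, -0.28 for miR-27a, 0.09 for miR-23b, -0.20 for miR-27b and -0.56 for miR-24. At lactation day 60 the a cluster stood above gestation day 125, by 0.82 for miR-23a and 0.59 for miR-27a, and it did so under the same 4 other scalings too, whereas miR-23b differed by 0.15, miR-24 by -0.05 and miR-27b by -0.21. In mice the step with the biggest difference was that of miR-27b, 0.82 higher at gestation day 17 than at gestation day 10, and these arrays also lay on different slides. That difference is far above the error between spots of 0.03, which does not include differences between animals or slides.

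Members of a cluster and members that share a seed were also compared by their courses over the arrays. After each species' mean was taken off, the log2 signals of miR-23a and miR-27a over the 10 arrays had a Pearson r of 0.91 and a Spearman rho of 0.88, and those of miR-23b and miR-27b had an r of 0.77 and a rho of 0.70. Without the 2 arrays farthest from the median of the first miRNA named, r was 0.69 and 0.51. Pairs that share a seed gave r of -0.20 for miR-23a with miR-23b and -0.19 for miR-27a with miR-27b. miR-24 gave r of 0.25 with miR-23a, 0.47 with miR-27a, 0.11 with miR-23b and 0.23 with miR-27b. All 10 arrays share scaling, probes of similar length and slide between the members, so these values describe the arrays and carry no test.

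With the longer probe of each miRNA alone the a cluster pair had an r of 0.95 and a rho of 0.90, and 0.93 without the 2 farthest arrays. The b cluster pair then had an r of 0.66 and a rho of 0.38, and -0.12 without the 2 farthest arrays. By the longer probes the r of miR-23b and miR-27b thus depended on those arrays. It was 0.84 over the 5 mouse arrays and -0.75 over the 5 sheep arrays. In sheep these longer probes did not run together, since miR-23b was highest at lactation day 60, at 0.82, where miR-27b was lowest, at -0.82. The seed pairs had r of -0.18 for miR-23 and -0.44 for miR-27, and miR-24 had r between -0.31 with miR-23b and 0.29 with miR-27a. Of the pairs within a cluster, that of miR-23a and miR-27a thus kept its correlation with either reading and without the 2 farthest arrays.

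**Figure D4:**
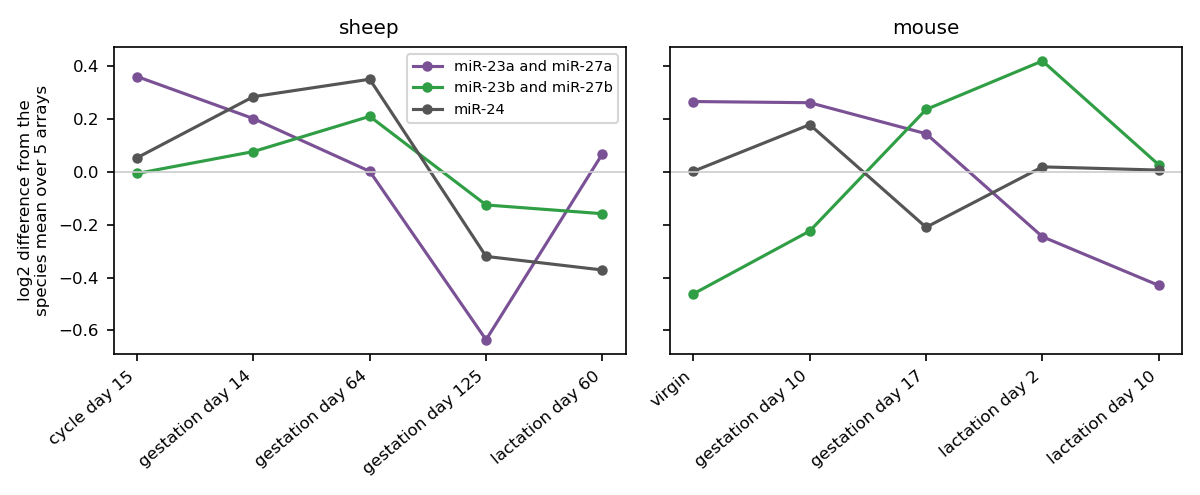
Mean log2 difference from each species' own mean over its 5 arrays (vertical axis) for the a cluster pair, the b cluster pair and miR-24, in stage order (horizontal axis), sheep on the left and mouse on the right. In mice the a cluster pair is lowest at lactation day 10 and the b cluster pair is lowest in virgins. In sheep the a cluster pair spans 1.00 log2 units against 0.37 for the b cluster pair with the probes of each miRNA averaged, a contrast that depends on the probe.

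Taken by seed instead, the a and b forms were averaged on each array. The mean of miR-23a and miR-23b spanned 0.58 log2 units over the sheep arrays and 0.27 over the mouse arrays. The mean of miR-27a and miR-27b spanned 0.62 in sheep and 0.52 in mice, and miR-24 spanned 0.72 in sheep and 0.39 in mice. By cluster, the mean of miR-23a and miR-27a spanned 1.00 in sheep and 0.70 in mice, and that of miR-23b and miR-27b spanned 0.37 in sheep and 0.88 in mice. In mice the span of each seed was thus smaller than that of either cluster pair, with the a forms lower and the b forms higher at lactation day 10 than in virgins. These means weight the 2 forms of a seed equally on the log2 scale, since their amounts cannot be compared between probes. With the shorter probes alone, single sheep spans were 1.07 for miR-23a, 1.92 for miR-27a, 1.01 for miR-23b and 1.66 for miR-27b. The longer probes alone gave 1.04, 0.94, 0.22 and 0.41 in that order, so the contrast between the clusters in sheep depends on the probe.

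Among the 89 other miRNAs detected on all 10 arrays, the 3 most like each member over the 10 arrays, by r after each species' mean was taken off, were named as follows. For miR-23a they were miR-10a with 0.70, miR-497 with 0.68 and miR-34a with 0.66. For miR-27a they were miR-497 with 0.85, miR-199b* with 0.82 and miR-34a with 0.82, so miR-497 and miR-34a were named for both a forms. For miR-23b they were miR-10b with 0.77, miR-181a with 0.71 and miR-30b with 0.70. For miR-27b they were miR-143 with 0.82, miR-30c with 0.73 and miR-30e with 0.70, so members of the miR-30 family were named for both b forms. For miR-24 they were miR-193b, which is among the adipocyte miRNAs above, with 0.87, miR-140 with 0.83 and miR-152 with 0.81.

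The 2 probes of each member target stretches of 16 to 18 bases that differ by 1 base in length. Over the 10 arrays the probes of a member correlated with r between 0.93 and 0.95 for miR-23a, miR-23b, miR-27b and miR-24, and with r of 0.69 for miR-27a. The species means were left in, so these r also hold the difference between sheep and mouse. Within sheep the 2 probes of miR-23b did not run together. At gestation day 64 the longer probe was at its lowest sheep value, 0.60, and the shorter at its highest, -0.31. The log2 signal of the shorter minus the longer probe was highest on the array of sheep gestation day 64 for 5 of 5 members and next highest at sheep gestation day 14 for 5 of 5. Its median over the members was -0.91 at sheep gestation day 64 and -1.45 at sheep gestation day 14, and between -2.10 and -1.91 on the other 8 arrays. The values of sheep gestation days 14 and 64 therefore depend more on which probe is read than those of the other arrays.

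Read with each probe alone, the difference between sheep and mouse lay between 1.18 and 1.57 log2 units for miR-23b and between 1.00 and 1.48 for miR-27b, as plain differences of means. It lay between 0.52 and 0.72 for miR-23a, between 0.53 and 1.12 for miR-27a and between 0.32 and 0.42 for miR-24. Every member was higher in sheep by either probe. The narrow span of miR-23b over the sheep stages, at 0.22 log2 units with the longer probe alone, was 1.01 with the shorter probe alone, wider than that of miR-24 by its shorter probe, at 0.90.

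**Figure D5:**
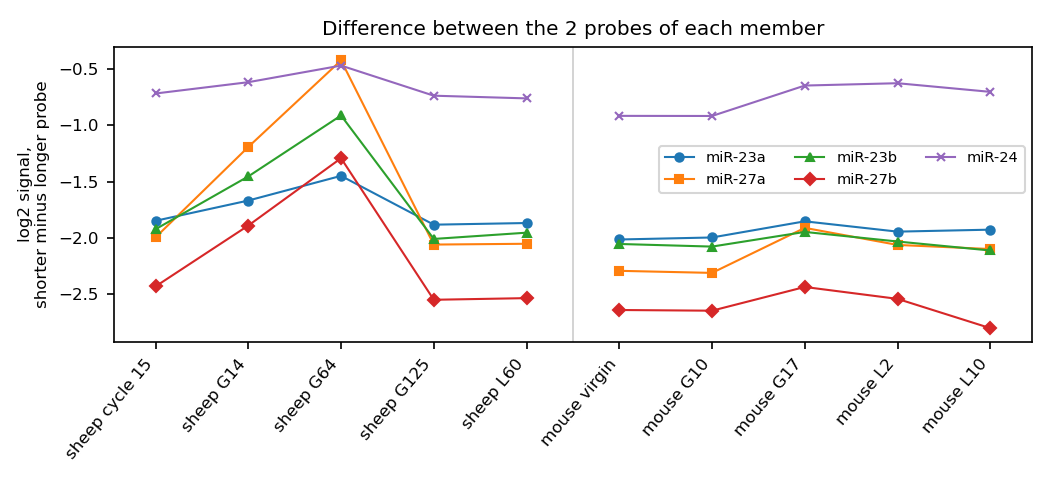
Log2 signal of the shorter minus the longer probe (vertical axis) of each member on each array (horizontal axis: 5 sheep stages, then 5 mouse stages), 1 line per member. All 5 members have their highest value at sheep gestation day 64 and their next highest at sheep gestation day 14.

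The array also carried probes for 4 of the 6 passenger strands of these hairpins, the strands that are mostly discarded when the mature miRNA is loaded. miR-27a*, miR-27b* and miR-24-2* were detected on 0 of 10 arrays. miR-24-1*, which lies in the b cluster, was detected on 5 of 5 sheep arrays and 0 of 5 mouse arrays. Of its 20 spots, 12, 18, 15, 1 and 6 were well above background on the sheep arrays in stage order. On the mouse arrays at most 1 was. The mean signal of miR-24-1* before scaling was 40.1 in sheep at cycle day 15, 44.3 at gestation day 14, 38.4 at gestation day 64, 13.4 at gestation day 125 and 12.3 at lactation day 60. The mouse signals were 2.62 in virgins, 5.34 at gestation day 10, 8.02 at gestation day 17, 2.72 at lactation day 2 and -0.40 at lactation day 10. Every value of miR-24-1* lay under the floor after scaling, so its limma fit gave a difference of 0. Most sheep arrays were brighter as a whole, but the 75th percentile was 891 at mouse gestation day 17 and 788 at sheep lactation day 60. The part of brightness in the detection of miR-24-1* was not tested.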

How the data were processed

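The deposited scanner files hold intensity values on a linear scale. Per the file headers, the processed signal is background-subtracted by Agilent Feature Extraction 10.5.1.1, whereas the submitters' processing notes give version 9.5. Flags of 0 or 1 for detection, background, saturation and outlier spots come from the same deposited files. Per the labels, 100 ng of total RNA with an RNA integrity number of 6 or more was labelled with Cy3.

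Outlier spots were left out, spots were averaged by probe and probes by miRNA, and each array was divided by its 75th percentile over the 94 miRNAs detected on all arrays. Values under 0.029 (-5.11 as log2), the highest of the arrays' 5th percentiles of detected miRNAs, were set to that floor. The 213 miRNAs detected on at least 3 arrays, 29 of them at the floor on all 10, were tested with limma 3.58.1 in R 4.3.3 (lmFit, eBayes, Benjamini-Hochberg, threshold 0.05). Residual degrees of freedom were 6 in the additive model of species and stage class and 4 in the model with 6 means. Ratios of a to b forms were tested by exact permutation, with the adjustment over the 4 ratio tests from scipy 1.17.1.

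The text names the 5 members, their passenger strands, the 3 miRNAs most like each member among those detected on all arrays, and marker miRNAs beside a result. Members and lists were chosen with earlier results of these data known. The scripts were tested on simulated data. The number of arrays limits the precision.

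The value table the authors deposited, also an intensity, equalled Agilent's total signal times 1 constant per array within 0.1% for 97.3 to 99.3% of miRNAs with a signal above 50. Its column medians lay between -3.94 and 0.303 for sheep and between -11.6 and 0.76 for mice, and the basis of the constants is unknown. It served as an alternative.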

Additional observations from a re-analysis of the deposited data

Results flagged for a closer look

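For 2 members the change between lactation and the class not pregnant had opposite signs in the 2 species, though for miR-24 the mouse change was too small to give a direction. Every lactation array of a species lay on the same side of its array from animals that were not pregnant. For miR-27b, lactation minus not pregnant was -0.33 on the log2 scale in sheep and 0.78 in mice. For miR-24 it was -0.43 in sheep and 0.010 in mice, so the mouse value was close to 0. It was about the size of the errors between spots, 0.010 to 0.014 on these mouse arrays. With the longer probe alone miR-24 was at 0.41 in virgin mice, 0.31 at lactation day 2 and 0.33 at lactation day 10. By that probe it was thus lower in lactation in mice, as in sheep. Each species had 1 array of animals that were not pregnant, and sheep had 1 of lactation, so these differences between the species were not tested. The mouse virgin array lay on slide 2, and only 11 of its 20 spots for miR-27b were well above background. Its summed level of striated muscle miRNAs was 1.02, against -3.11 on both mouse lactation arrays. On slide 1 alone, which leaves out the virgin array, only the sheep change of miR-27b could be computed.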

How the results depend on the processing

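No paired analysis was possible because no replicate or animal number in the labels links an array to another. The alternative slide 1 alone was chosen after seeing the data. For the species comparison the number of members called, 2 against 22.1% of all miRNAs, was 1 with normexp background correction (8.45% of all), on slide 1 alone (16%), with slide as a term (18.3%) and without the detection filter (5.64%). It was 5 without scaling (36.2% of all), where the median of all miRNAs shifted by 0.66, and 0 in the authors' value table (6.57% of all), where miR-23b had a limma adjusted p of 0.113. With 1 array left out it was 1 to 4, against 16 to 24.4% of all. For lactation minus not pregnant the count was 0 to 1 with 1 array left out, and 6.57% of all miRNAs were called where it was 1. The miR-23 ratio between the species, -0.71, was -0.59 with normexp (exact permutation p = 0.0635), -0.66 with the brightest probe (exact permutation p = 0.0635) and -0.42 on slide 1 alone, and -0.85 to -0.57 with 1 array left out. The miR-27 ratio between the species was 0.015 with normexp and 0.11 on slide 1 alone. The miR-27 ratio between lactation and gestation was 0.12 on slide 1 alone and -0.54 to 0.12 with 1 array left out. Stage values of single members, of which none was called, changed sign as follows. Lactation minus gestation was 0.12 for miR-27b with normexp. With the 75th percentile over all miRNAs it was 0.095 for miR-23a, 0.17 for miR-27b and 0.031 for miR-24, and without scaling -0.88 for miR-23b, where all miRNAs shifted by -0.66. In the authors' value table it was 0.23 for miR-23a, 0.045 for miR-27a, 0.30 for miR-27b and 0.16 for miR-24, and with the brightest probe 0.0012 for miR-23a and 0.12 for miR-27b. With 1 array left out it was -0.40 to 0.015 for miR-23a, -0.26 to 0.28 for miR-27b and -0.30 to 0.016 for miR-24. Lactation minus not pregnant was -0.75 for miR-23b and -0.78 for miR-27b without scaling, where all miRNAs shifted by -0.76. It was -0.21 for miR-23b and -0.23 for miR-27b in the authors' value table, with a median shift of all miRNAs of -0.15. For miR-27b it was -0.24 on slide 1 alone and -0.22 with slide as a term. With 1 array left out it was -0.21 to 0.035 for miR-24 and -0.049 to 0.64 for miR-27b. Gestation minus not pregnant was -0.0043 for miR-23b and -0.14 for miR-24 with the 75th percentile over all miRNAs, and -0.0097 for miR-24 without scaling. In the authors' value table, with a median shift of -0.39, it was -0.73 for miR-23b, -0.53 for miR-27b and -0.86 for miR-24. It was -0.040 for miR-24 with the brightest probe, and -0.030 for miR-23b and -0.031 for miR-24 on slide 1 alone. With 1 array left out it was -0.041 to 0.39 for miR-23b and -0.044 to 0.13 for miR-24. The difference between species in lactation minus gestation was 0.68 for miR-23b, 0.21 for miR-27b and 0.37 for miR-24 with the 75th percentile over all miRNAs, where all miRNAs shifted by 0.24. It was 0.37 for miR-23b and 0.062 for miR-24 without scaling, and 0.33 for miR-23b and 0.023 for miR-24 in the authors' value table. The causes were not tested. Signal over background limits miR-27b on the mouse arrays, and every stage and day rests on 1 array.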
